A study of Mus musculus with 6 samples.

Results

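The genes described here are 9 genes associated with the inflammatory monocyte, measured by RNA sequencing in mouse bone marrow-derived macrophages (BMMs) as they were driven towards osteoclasts. The 9 genes were Plac8, Ly6c1, Ly6c2, Ly6a, Ly6i, Spn, Lyz2, Adgre1 and Emilin2. They were found by symbol among the 24940 genes of the deposited table, and all 9 were present. The list was selected on measured values of these same libraries, for the large fall of Plac8 and Ly6c2 after RANKL, so the difference between +R and -R is described for its members and is not tested. All 9 were among the 11595 genes whose level, averaged over all libraries, reached 0.5 RPKM (the number of reads scaled to transcript length and sequencing depth). Plac8, Ly6c1 and Ly6c2 passed this filter only through the -R libraries.

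M-CSF lets BMMs grow from marrow cells, and RANKL, a cytokine, then turns these precursors into osteoclasts. M-CSF was present in all cultures, at 30 ng/mL, over the 3 days. The -R group had M-CSF alone, the +R group had RANKL at 100 ng/mL in addition, and the R+LE group had RANKL at 100 ng/mL and LE, a leaf extract of the shrub Abeliophyllum distichum, at 10 μg/mL. Each group had 2 libraries, and nothing in the sources says whether these came from separate cultures, so p-values measure the spread between libraries only. According to the labels the mice were C57BL/6, 6 to 8 weeks old, with cells in 48-well plates, whereas the study's methods name male ICR mice, 6 to 7 weeks old, and 6-well plates. No group with LE but without RANKL was analysed here.

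Inflammatory monocytes, also called classical or Ly6C-high monocytes, leave the marrow with high surface Ly6C and give rise to macrophages in tissue. The Ly6 genes encode small proteins that are held on the cell surface by a lipid anchor, lie side by side in a cluster, and many are induced by interferon. Monocytes and macrophages share their precursor with osteoclasts, and many of their genes are known to be turned off as osteoclasts form. In a bulk RNA sample, fewer cells of a type and less RNA per cell cannot be told apart.

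The 9 genes did not move as 1 group. In +R, mean levels of Plac8, Ly6c1 and Ly6c2 were under 1% of those in -R, that of Ly6a was 9.34%, and those of Emilin2, Lyz2 and Adgre1 were between 37.5% and 55.6%, whereas Spn and Ly6i were higher than in -R. When LE was added to RANKL, Ly6a and Emilin2 rose, Spn fell, and Ly6i, Lyz2 and Adgre1 did not pass the test. Plac8, Ly6c1 and Ly6c2 are described without a test, and in R+LE their means were 1.33% or less of those in -R. The direction of Spn and Ly6i goes against the name under which the genes were grouped, and Ly6i was under 1 RPKM in every library.

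**Figure D1:**
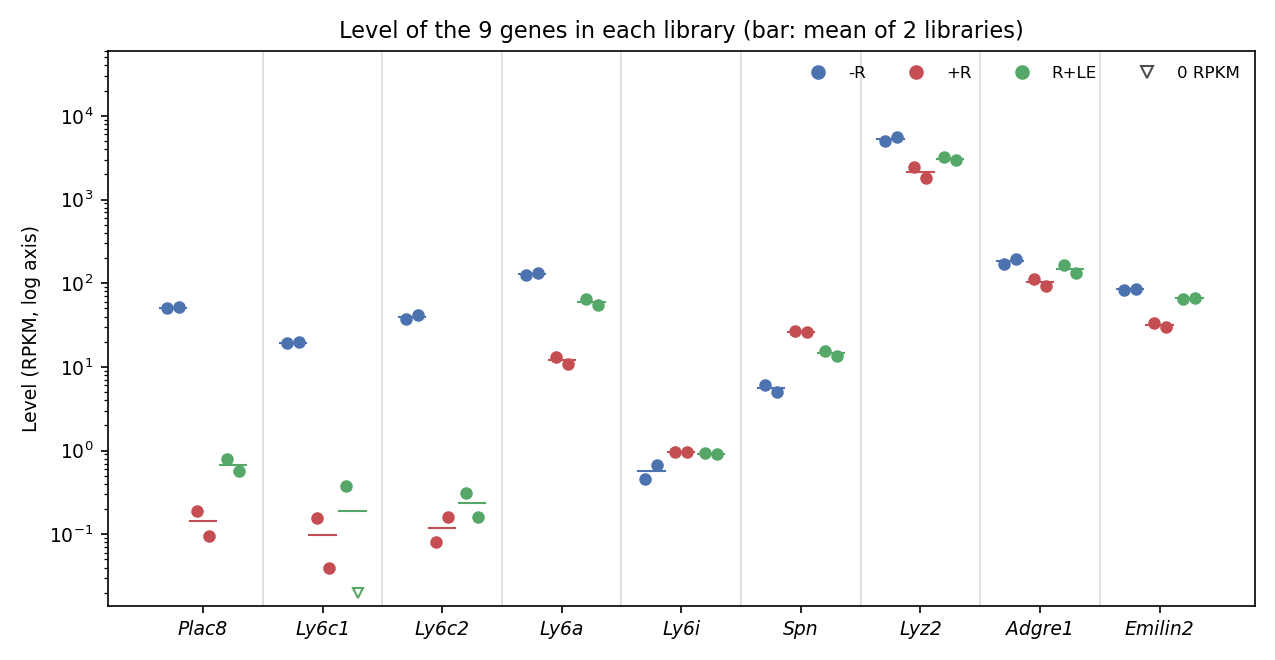
Level of each of the 9 genes in RPKM on a log axis, with 1 point per library, a bar at the mean of the 2 libraries of a group and an open triangle for a library at 0 RPKM. Plac8, Ly6c1 and Ly6c2 lie between 19.3 and 51.4 RPKM in -R and below 0.8 RPKM in all 4 libraries with RANKL, while Ly6a and Emilin2 in R+LE lie between their levels in +R and -R, and Spn is lowest in -R.

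Plac8 encodes a small cysteine-rich protein that is abundant in monocytes, granulocytes and interferon-producing dendritic cells. It lies on chromosome 5 of mm10 from 100553733 to 100572205 on the minus strand. Its level was 50.8 and 51.4 RPKM in the -R libraries, 0.189 and 0.095 RPKM in the +R libraries, and 0.782 and 0.572 RPKM in the R+LE libraries. The 3 groups did not overlap. The values correspond to 1028 and 1233 reads in -R, 4 and 2 reads in +R, and 17 and 12 reads in R+LE, so the levels with RANKL rest on few reads. Per mapped read, -R held 360 times the Plac8 reads of +R (95% counting interval 165 to 983) and 75.3 times those of R+LE (52.3 to 113).

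Since the list was chosen for low values in +R, a comparison of R+LE with those same libraries favours a rise, above all for the 3 genes that passed the filter only through -R. For Plac8, Ly6c1 and Ly6c2 the difference between R+LE and +R is therefore given with no test. The other 6 genes were tested with limma and Benjamini-Hochberg adjustment over 11595 genes, and the +R libraries of that test also took part in the choice of the list. Both R+LE values of Plac8 lay above both +R values, with a difference of 0.87 in log2(RPKM + 0.5) (SE 0.16). At such low levels the added 0.5 RPKM shrinks the fold, and per mapped read R+LE held 4.79 times the Plac8 reads of +R. This ratio pools the reads of both libraries of a group and does not take in the spread between them. In log2 values the difference was 2.15 under voom on recovered reads and 0.55 with a pseudocount of 1.

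Ly6c1 and Ly6c2 encode the near-identical surface proteins that the Ly6C antibody detects, and they define the inflammatory monocyte in the mouse. Ly6c1 lies on chromosome 15 of mm10 from 75045015 to 75048837 and Ly6c2 from 75108161 to 75111971, both on the minus strand. Their coding sequences, of 393 bases each, differ at 9 bases, and 97.7% of the bases are identical in the GENCODE M21 transcripts. Of the 100-base stretches along the transcripts, 15.3% in Ly6c1 and 15.8% in Ly6c2 also occur in the other gene, so a read of 100 bp there could be given to either. How reads that fit both genes were counted is not given in the sources used here, and for this reason the sum of both genes is reported as well. The opening 120 coding bases, from the start codon and joined across an intron, are printed for both genes (GENCODE M21, GRCm38, the same build as mm10) because they hold 6 of the 9 differing bases, which are in capitals, so a read that covers them can be assigned.
Ly6c1: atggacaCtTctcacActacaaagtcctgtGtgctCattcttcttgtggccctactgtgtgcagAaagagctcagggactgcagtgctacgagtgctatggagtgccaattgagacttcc
Ly6c2: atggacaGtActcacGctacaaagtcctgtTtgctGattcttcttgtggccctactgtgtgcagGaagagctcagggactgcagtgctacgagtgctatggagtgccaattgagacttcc

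Ly6c2 was 37.5 and 41.3 RPKM in -R, 0.080 and 0.159 RPKM in +R, and 0.310 and 0.161 RPKM in R+LE. These correspond to 900 and 1176 reads, 2 and 4 reads, and 8 and 4 reads. Both -R libraries were far above the other 4, and the R+LE values were both above the +R values, the nearest by 0.161 against 0.159 RPKM. The difference between R+LE and +R was 0.24 in log2(RPKM + 0.5) (SE 0.17).

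Ly6c1 was 19.3 and 19.7 RPKM in -R, 0.155 and 0.039 RPKM in +R, and 0.376 and 0 RPKM in R+LE. The reads were 477 and 578, then 4 and 1, then 10 and 0. Thus, all Ly6c1 reads of R+LE came from replicate 1, and the +R and R+LE groups overlapped. The difference between R+LE and +R was 0.16 (SE 0.23) and turned to -0.25 without R+LE replicate 1. Where a library is left out here or for another gene, its group has 1 library, which is assumed to vary like the other groups, and such p-values rest on that.

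Taken as 1 feature, the sum of Ly6c1 and Ly6c2 was 56.7 and 61.0 RPKM in -R, 0.235 and 0.198 RPKM in +R, and 0.686 and 0.161 RPKM in R+LE. The 2 R+LE libraries lay on either side of the +R libraries. Per mapped read, -R held 272 times the reads of +R (95% counting interval 152 to 546). With both libraries of a group pooled, R+LE held 1.98 times the reads of +R. In log2(RPKM + 0.5), the sum differed by 0.31 between R+LE and +R (SE 0.22). This value rests on single libraries, being -0.12 without R+LE replicate 1 and 0.73 without R+LE replicate 2.

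Whether Plac8 and the Ly6c pair differed in their response to LE was not tested, and the values are given side by side. R+LE against +R gave 29 reads against 6 for Plac8, 12 against 6 for Ly6c2 and 10 against 5 for Ly6c1. For a transcript of 1 kb, 3 reads equal 0.0861 to 0.102 RPKM in these libraries, and Ly6c1 and Ly6c2 had between 1 and 4 reads in each +R library.

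Ly6a, which encodes the stem cell antigen Sca-1 and is a known interferon target, lies between Ly6i and Ly6c1 on chromosome 15 from 74994877 to 74998031 on the minus strand. Its level was 126 and 133 RPKM in -R, 13.3 and 10.9 RPKM in +R, and 65.1 and 55.3 RPKM in R+LE. The groups did not overlap, and the R+LE libraries lay between the others. The mean of R+LE was 60.2 ± 6.92 RPKM (SD, n = 2), which is 4.97 times that of +R and 46.4% of that of -R. Ly6a was the member with the largest difference between R+LE and +R, 2.27 in log2(RPKM + 0.5) (SE 0.15, adjusted p = 2.54e-07 in limma), and both R+LE libraries were above both +R libraries. It passed the test under all 16 alternatives, with an adjusted p of at most 0.00572.

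Ly6i is a further member of the cluster, on chromosome 15 from 74979534 to 74983430 on the minus strand, with a coding sequence 86.3% identical to that of Ly6a. No stretch of 100 bases is shared between them. Ly6i was 0.458 and 0.676 RPKM in -R, 0.949 and 0.949 RPKM in +R, and 0.923 and 0.920 RPKM in R+LE. The 4 libraries with RANKL were above both -R libraries, from 25 or 26 reads each against 12 and 21 reads. R+LE and +R differed by -0.03 (SE 0.21, 95% interval -0.47 to 0.42, adjusted p = 0.963 in limma), and this small difference changed sign when values were centred on the median.

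Ly6a and Ly6c2 can be set beside the rest of the Ly6 cluster on chromosome 15, a list of 20 genes in the table. Of these, 10 were at 0 RPKM in every library and 5 passed the filter, which were Ly6a, Ly6c1, Ly6c2, Ly6i and Ly6e. Ly6e, the most abundant gene of the cluster and an interferon target, was 715 and 777 RPKM in -R, 343 and 301 RPKM in +R, and 370 and 351 RPKM in R+LE. Ly6e fell with RANKL (log2 difference -1.21, adjusted p = 3.92e-05 in limma), and its difference between R+LE and +R did not pass the test (0.17, adjusted p = 0.660). Ly6d, a marker of early lymphoid cells, had reads only in -R, at 1.04 and 0.753 RPKM. Ly6g, the neutrophil antigen that neighbours these genes, was at most 0.334 RPKM in any library. Thus, of Ly6a, Ly6i and Ly6e, only Ly6a passed the test between R+LE and +R, and whether Ly6a differed from its neighbours in this was not tested.

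**Figure D2:**
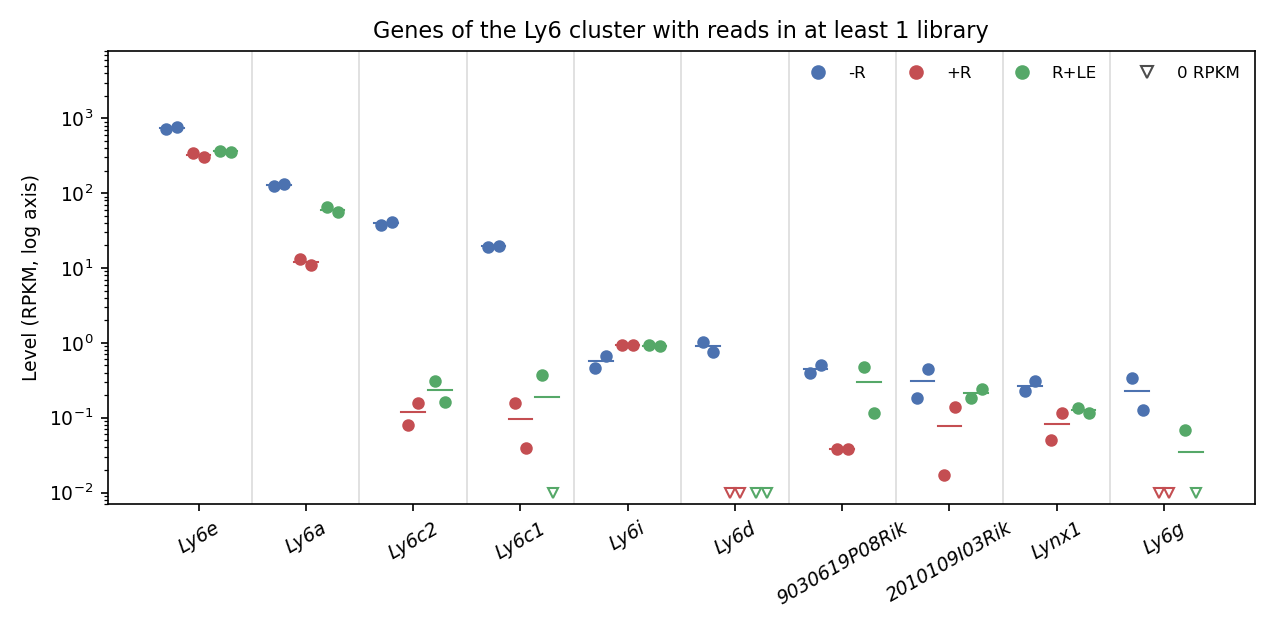
Level in RPKM on a log axis of the 10 genes of the Ly6 cluster with reads in at least 1 library, ordered by mean level, with 1 point per library, a bar at the group mean and an open triangle at 0 RPKM. Ly6a in R+LE reaches 55.3 and 65.1 RPKM, while Ly6c1 and Ly6c2 in R+LE stay below 0.4 RPKM and Ly6e in R+LE is 370 and 351 RPKM, under both of its -R libraries.

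Emilin2 encodes an extracellular matrix glycoprotein of the elastin microfibril interface, and lies on chromosome 17 from 71252172 to 71311011 on the minus strand. It was 83.5 and 85.3 RPKM in -R, 33.0 and 30.3 RPKM in +R, and 65.0 and 67.4 RPKM in R+LE. The groups did not overlap, and the mean in R+LE was 78.4% of that in -R. Emilin2 rose with LE by 1.05 in log2(RPKM + 0.5) (SE 0.14, adjusted p = 0.000129 in limma), or 2.09-fold in mean RPKM. Without +R replicate 2 the difference was 0.99, just under the 2-fold limit for a call, with adjusted p = 0.000423. Of the 5 genes of the EMILIN and multimerin family, only Emilin1 and Emilin2 passed the filter. Emilin1 fell from 15.6 and 13.2 RPKM in -R to 4.34 and 3.71 RPKM in +R (log2 difference -1.72, adjusted p = 1.31e-07), and rose to 8.71 and 8.91 RPKM in R+LE (1.05, adjusted p = 0.000179).

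Lyz2 encodes lysozyme M, the enzyme by which mouse myeloid cells digest bacterial walls, and lies on chromosome 10 from 117277541 to 117282272 on the minus strand. It was the most abundant of the 9 genes in every group, at 5062 and 5571 RPKM in -R, 2448 and 1815 RPKM in +R, and 3191 and 2929 RPKM in R+LE. The groups did not overlap, with R+LE in between. The difference between R+LE and +R was 0.54 (SE 0.24, 95% interval 0.02 to 1.05) and did not pass the test (adjusted p = 0.191 in limma), although it passed with quantile normalization (adjusted p = 0.0135) and with voom on recovered reads (adjusted p = 0.00537). Its neighbour and paralog Lyz1 shares 1.97% of the 100-base stretches of Lyz2. Lyz1 was 346 and 394 RPKM in -R, 173 and 115 RPKM in +R, and 243 and 207 RPKM in R+LE, and it was higher in R+LE than in +R by less than 2-fold (0.67, adjusted p = 0.0373 in limma).

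Adgre1 encodes F4/80, the adhesion receptor that serves as the standard surface marker of mouse macrophages, and lies on chromosome 17 from 57358686 to 57483529 on the plus strand. It was 172 and 196 RPKM in -R, 113 and 91.5 RPKM in +R, and 163 and 133 RPKM in R+LE. The R+LE libraries were both above the +R libraries and below the -R libraries. The difference between R+LE and +R was 0.53 (SE 0.17, 95% interval 0.17 to 0.90), just short of the threshold (adjusted p = 0.0565 in limma). The call depended on the treatment of the data, since adjusted p was 0.0136 with values centred on the median, 0.0119 without R+LE replicate 2 and 0.447 without +R replicate 2. Among its relatives, Adgre4 rose with RANKL from 0.245 and 0.388 RPKM to 2.48 and 2.28 RPKM (1.82, adjusted p = 2.06e-06), and was lower with LE (-0.85, adjusted p = 0.00903). Adgre5, which encodes CD97, did not pass the test between +R and -R (-0.28, adjusted p = 0.151) and was lower in R+LE than in +R (-0.52, adjusted p = 0.0358).

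Spn encodes CD43, or leukosialin, a heavily glycosylated surface mucin that is known to be higher on non-classical than on classical monocytes. It lies on chromosome 7 from 127133694 to 127137823 on the minus strand. Spn was 6.04 and 5.04 RPKM in -R, 26.7 and 25.8 RPKM in +R, and 15.5 and 13.7 RPKM in R+LE. The groups did not overlap, and in contrast to the other members of high level the -R libraries were lowest, with a mean in +R that was 4.75 times that in -R. Spn fell with LE, by 0.83 in log2(RPKM + 0.5) (SE 0.14, adjusted p = 0.00107 in limma). Both R+LE libraries were below both +R libraries, and the R+LE mean was 2.63 times that of -R. It kept its side of the threshold under all 16 alternatives.

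By level within a group, Lyz2 and Adgre1 were the highest of the 9 in all 3 groups. In -R they were followed by Ly6a, Emilin2, Plac8, Ly6c2, Ly6c1, Spn and Ly6i, with no overlap between neighbours. In +R the order was Lyz2, Adgre1, Emilin2, Spn, Ly6a and Ly6i, and then Plac8, Ly6c2 and Ly6c1, whose libraries overlapped. In R+LE, Emilin2 and Ly6a overlapped, as did Ly6c2 and Ly6c1.

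Counted against the background of all genes, a call needed an adjusted p below 0.05 together with a 2-fold change or more. Of the 6 members tested between R+LE and +R, 2 were called higher, Ly6a and Emilin2, where 1.46% of all tested genes were, and 0 were called lower, where 1.78% were. At adjusted p below 0.05 with no limit on the fold, the same 2 were higher, against 5.19% of all tested genes, and 1 was lower, Spn, against 6.86%. In limma at an unadjusted p below 0.05, 5 of the 6 passed, with Lyz2 and Adgre1 added to these 3, as did 2707 of all 11595 genes. With voom 2 of the 6 were called higher and 0 lower, as were 259 and 260 of all 11595 genes. Between +R and -R, the comparison that the list was chosen on, 7 of the 9 had a lower mean in +R and 2 a higher one, with no test.

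**Figure D3:**
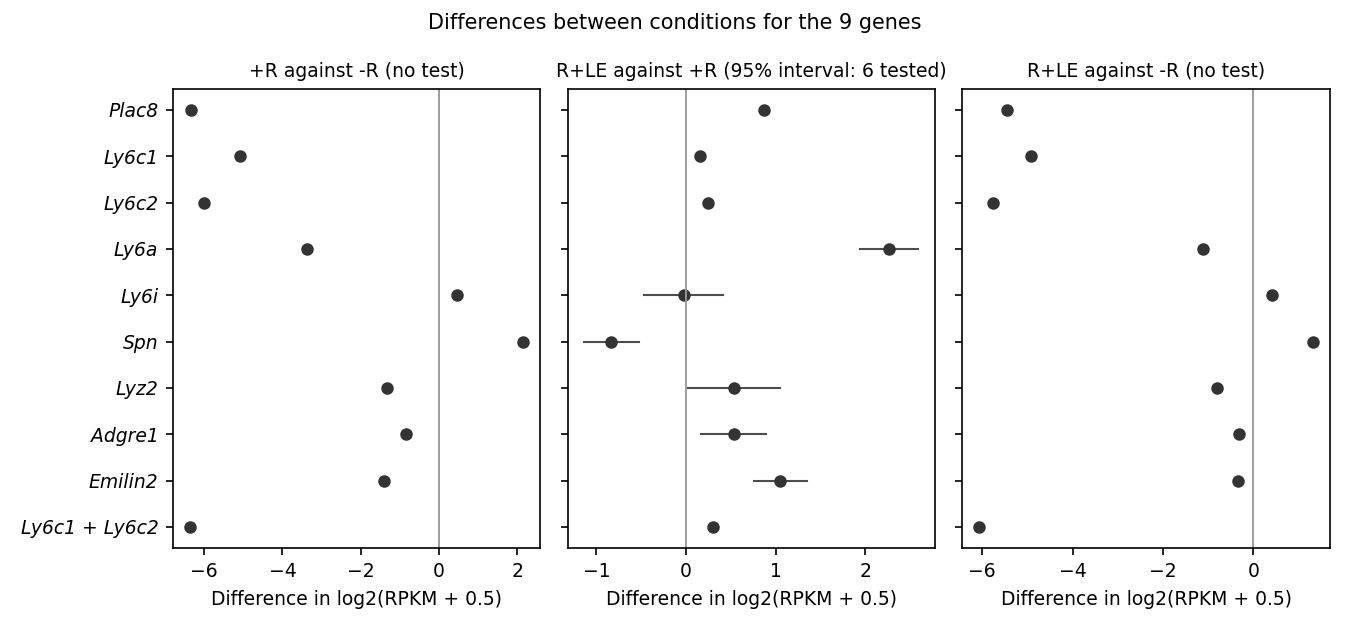
Difference between conditions in log2(RPKM + 0.5) for the 9 genes and for the sum of Ly6c1 and Ly6c2, in 3 panels with separate scales, 1 for each pair of groups, with 95% intervals from limma for the 6 genes tested in the middle panel. In R+LE against +R the intervals of Ly6a, Emilin2, Lyz2 and Adgre1 lie above 0, that of Spn lies below 0, and that of Ly6i includes 0. The intervals are not adjusted for the number of genes, and Lyz2 and Adgre1 did not pass at adjusted p below 0.05.

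Promoter sequence was available for 6 of the 9 genes in the RefSeq table (GRCm38.p6), which are Plac8, Ly6c1, Ly6c2, Spn, Lyz2 and Emilin2. The 250 bases before the transcription start were searched on both strands for the interferon-stimulated response element (GAAA, any 2 bases, GAAA), for the gamma-activated site TTCNNNGAA, and for GAGGAAGT, a core recognised by the ETS factor PU.1. Over 32851 promoters of this length these occurred in 2.98%, 7.02% and 2.44%. Among the 6 genes, GAGGAAGT was found in Ly6c2, beginning 108 bases before the start, and a gamma-activated site in Emilin2, beginning 85 bases before it. Plac8, Ly6c1, Spn and Lyz2 held no match, which says only that these letters are not in this window. The windows of the 3 genes that were lowest in +R are printed because Ly6c1 and Ly6c2 were both high in -R only although 75.9% of 216 aligned promoter bases were identical, fewer than in the coding sequence, and because the match, in capitals, is in Ly6c2 but not in Ly6c1. They lie at chr5:100572206-100572455, chr15:75048838-75049087 and chr15:75111972-75112221, all on the minus strand, and are written 5′ to 3′.
Plac8: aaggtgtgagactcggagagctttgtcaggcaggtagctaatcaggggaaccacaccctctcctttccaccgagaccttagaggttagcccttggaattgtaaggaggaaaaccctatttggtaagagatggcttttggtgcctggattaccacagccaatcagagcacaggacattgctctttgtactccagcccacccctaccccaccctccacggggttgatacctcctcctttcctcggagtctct
Ly6c1: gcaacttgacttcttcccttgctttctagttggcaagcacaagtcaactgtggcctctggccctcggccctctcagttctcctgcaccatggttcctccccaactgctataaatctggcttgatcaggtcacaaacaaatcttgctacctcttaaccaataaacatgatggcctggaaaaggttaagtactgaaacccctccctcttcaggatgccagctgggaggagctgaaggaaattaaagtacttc
Ly6c2: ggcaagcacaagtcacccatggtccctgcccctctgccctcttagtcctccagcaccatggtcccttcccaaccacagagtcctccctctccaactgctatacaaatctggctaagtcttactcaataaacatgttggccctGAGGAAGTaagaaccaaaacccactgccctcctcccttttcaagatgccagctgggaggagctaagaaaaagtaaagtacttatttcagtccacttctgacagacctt
A match is a description of the letters and not evidence that a factor binds.

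To place the members among other genes of the lineage, lists of marker genes were counted in the same way. Here +R against -R was tested, since the choice of the 9 did not rest on the values of these other genes. The lists were nevertheless drawn up with earlier results of these data known, so their counts are not independent support. Some genes stand in more than 1 list. Of the 17 tested genes known from classical monocytes, 12 fell and 1 rose with RANKL (median -1.84), where 8.92% and 6.58% of all tested genes did. F13a1 and S100a9, among the 12, passed the filter only through the -R libraries. Between R+LE and -R, 8 of the 17 were lower and 1 was higher, where 6.36% and 3.92% of all tested genes were. The largest changes were in Ms4a4c, a membrane protein of the MS4A family, from 42.0 and 39.8 RPKM to 0.437 and 1.20 RPKM (-5.04, adjusted p = 1.03e-10 in limma), and in Mgst1, a glutathione transferase, from 37.2 and 35.6 RPKM to 2.38 and 2.95 RPKM (-3.55, adjusted p = 2.69e-10). S100a9, a subunit of the alarmin calprotectin, went from 5.94 and 4.51 RPKM to 0 RPKM in all 4 libraries with RANKL. Its partner S100a8 fell from 10.6 and 10.5 RPKM to 0.589 and 0.673 RPKM (-3.29, adjusted p = 8.68e-07). Vcan, which encodes the matrix proteoglycan versican, rose from 1.19 and 1.47 RPKM to 18.5 and 14.8 RPKM (3.22, adjusted p = 2.12e-10).

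With LE, 3 of these 17 genes rose and 0 fell (median 0.54), where 1.46% and 1.78% of all tested genes did. At adjusted p below 0.05 with no limit on the fold, 7 were higher with LE and 1 was lower. Among all tested genes the shares were 5.19% and 6.86%. Mgst1 rose to 14.2 and 9.67 RPKM (1.96, adjusted p = 2.56e-06 in limma). Mmp8, a neutrophil collagenase, rose from 0.454 and 0.240 RPKM in +R to 2.40 and 1.78 RPKM (1.61, adjusted p = 0.000219), and Clec4e, the lectin receptor Mincle, from 8.54 and 5.59 RPKM to 21.9 and 17.3 RPKM (1.43, adjusted p = 7.03e-05). Ms4a4c in R+LE was 0.813 and 1.13 RPKM and did not pass the test (0.21, adjusted p = 0.654). Ccr2, the chemokine receptor by which inflammatory monocytes leave the marrow, fell with RANKL (-2.19, adjusted p = 2.15e-08) and was lower still in R+LE than in +R (-0.66, adjusted p = 0.0108), at 6.22 and 5.34 RPKM. Ccr2 was named for its role after its values were seen.

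Of 11 tested genes known from non-classical monocytes, 6 fell and 1, Itgax, rose with RANKL (median -1.47). Of all tested genes, 8.92% fell and 6.58% rose. With LE, 3 of the list rose and 0 fell (median 0.74), where 1.46% and 1.78% of all tested genes did. At adjusted p below 0.05 with no limit on the fold, 7 were higher with LE and 2 lower, Eno3 (-0.87) and Itgax (-0.69). Among all tested genes the shares were 5.19% and 6.86%. Cd36, a scavenger receptor for lipids, fell from 468 and 541 RPKM to 25.5 and 21.4 RPKM (-4.40, adjusted p = 4.12e-11 in limma), and rose with LE to 140 and 103 RPKM (2.34, adjusted p = 6.89e-07). Treml4, a receptor for dying cells, was 0.952 and 0.800 RPKM in +R and rose to 4.74 and 4.05 RPKM in R+LE (1.83, adjusted p = 5.15e-06), above its 2.07 and 1.71 RPKM in -R. Itgal, the integrin chain of LFA-1, rose with LE from 10.7 and 8.02 RPKM to 20.8 and 19.0 RPKM (1.06, adjusted p = 0.000284). Cx3cr1, the fractalkine receptor, was higher in R+LE by less than 2-fold, at 33.4 and 35.3 RPKM against 19.9 and 15.1 RPKM in +R (0.96, adjusted p = 0.000995).

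Of 21 tested genes of macrophage identity, 18 fell with RANKL and 0 rose (median -2.12). Of all tested genes, 8.92% fell and 6.58% rose. Cd163, among the 18, passed the filter only through the -R libraries. With LE, 2 of the list rose and 0 fell (median 0.46), where 1.46% and 1.78% of all tested genes did. At adjusted p below 0.05 with no limit on the fold, 9 were higher with LE and 2 lower, Mrc1 (-0.97) and C1qb (-0.56). Among all tested genes the shares were 5.19% and 6.86%. Fcgr1, the high-affinity IgG receptor, fell from 68.3 and 69.2 RPKM to 1.51 and 1.77 RPKM (-5.02, adjusted p = 1.01e-12 in limma) and was 1.93 and 1.77 RPKM in R+LE (0.14, adjusted p = 0.652). Siglec1, a sialic acid receptor, fell from 111 and 138 RPKM to 5.29 and 7.19 RPKM (-4.22, adjusted p = 1.34e-10). The 2 that rose with LE were Cd5l, a secreted scavenger protein, from 1.98 and 1.73 RPKM to 6.20 and 5.88 RPKM (1.47, adjusted p = 7.31e-06), and Mpeg1, the pore-forming perforin-2, from 71.6 and 61.7 RPKM to 129 and 150 RPKM (1.06, adjusted p = 0.00111).

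Of 15 tested transcription factors of the monocyte lineage, 10 fell with RANKL and 0 rose (median -1.27). Of all tested genes, 8.92% fell and 6.58% rose. With LE, 0 of the list were called in either direction (median 0.37), where 1.46% of all tested genes rose and 1.78% fell. At adjusted p below 0.05 with no limit on the fold, 5 were higher with LE. Among all tested genes the share was 5.19%. Irf8, which directs monocyte development, fell from 66.9 and 65.2 RPKM to 4.07 and 5.21 RPKM (-3.70, adjusted p = 4.12e-11 in limma), and was 7.88 and 6.76 RPKM in R+LE (0.61, adjusted p = 0.0128). Klf4, a factor needed for inflammatory monocytes, did not pass the test with RANKL (-0.03, adjusted p = 0.861), and was 10.8 and 12.8 RPKM in R+LE against 6.34 and 5.89 RPKM in +R (0.89, adjusted p = 0.000563). Spi1, which encodes PU.1, did not pass in either comparison (0.38, adjusted p = 0.0636, and -0.34, adjusted p = 0.214), and was named because its core motif was searched.

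Since several of the 9 genes are known interferon targets, 20 interferon response genes were counted too. With RANKL, 17 fell and 1 rose (median -1.88), where 8.92% and 6.58% of all tested genes did. With LE, 0 were called in either direction (median 0.19), where 1.46% of all tested genes rose and 1.78% fell. At adjusted p below 0.05 with no limit on the fold, 2 were higher with LE. Among all tested genes the share was 5.19%. Irf7, the regulator that amplifies the response, fell from 469 and 446 RPKM to a mean of 41.2 RPKM in +R (-3.46, adjusted p = 7.94e-11 in limma), and was 55.4 and 51.4 RPKM in R+LE (0.37, adjusted p = 0.130). Ifit3, which binds viral RNA complexes, fell from a mean of 23.4 RPKM to 2.14 and 2.43 RPKM (-3.10, adjusted p = 2.11e-10), with 2.89 and 3.56 RPKM in R+LE (0.41, adjusted p = 0.0856). Cxcl10, an interferon-induced chemokine, went the other way, from 6.07 and 5.09 RPKM in -R to 31.1 and 29.2 RPKM in +R (2.34, adjusted p = 2.87e-09). Ly6a rose 4.97-fold in mean RPKM with LE. Of these 20 genes, 14 had a positive difference with LE and 0 were called higher, where 1.46% of all tested genes were. Whether Ly6a differed from this list was not tested.

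As a check of the cultures, all 10 osteoclast markers rose with RANKL (median 5.51), where 6.58% of all tested genes did. All 10 fell with LE (median -2.15), where 1.78% of all tested genes did. They were still higher in R+LE than in -R (median 3.50, 10 of 10 called), where 3.92% of all tested genes were. Acp5, which encodes the TRAP enzyme, was 33.6 and 34.8 RPKM in -R, 964 and 795 RPKM in +R, and 185 and 147 RPKM in R+LE.

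**Figure D4:**
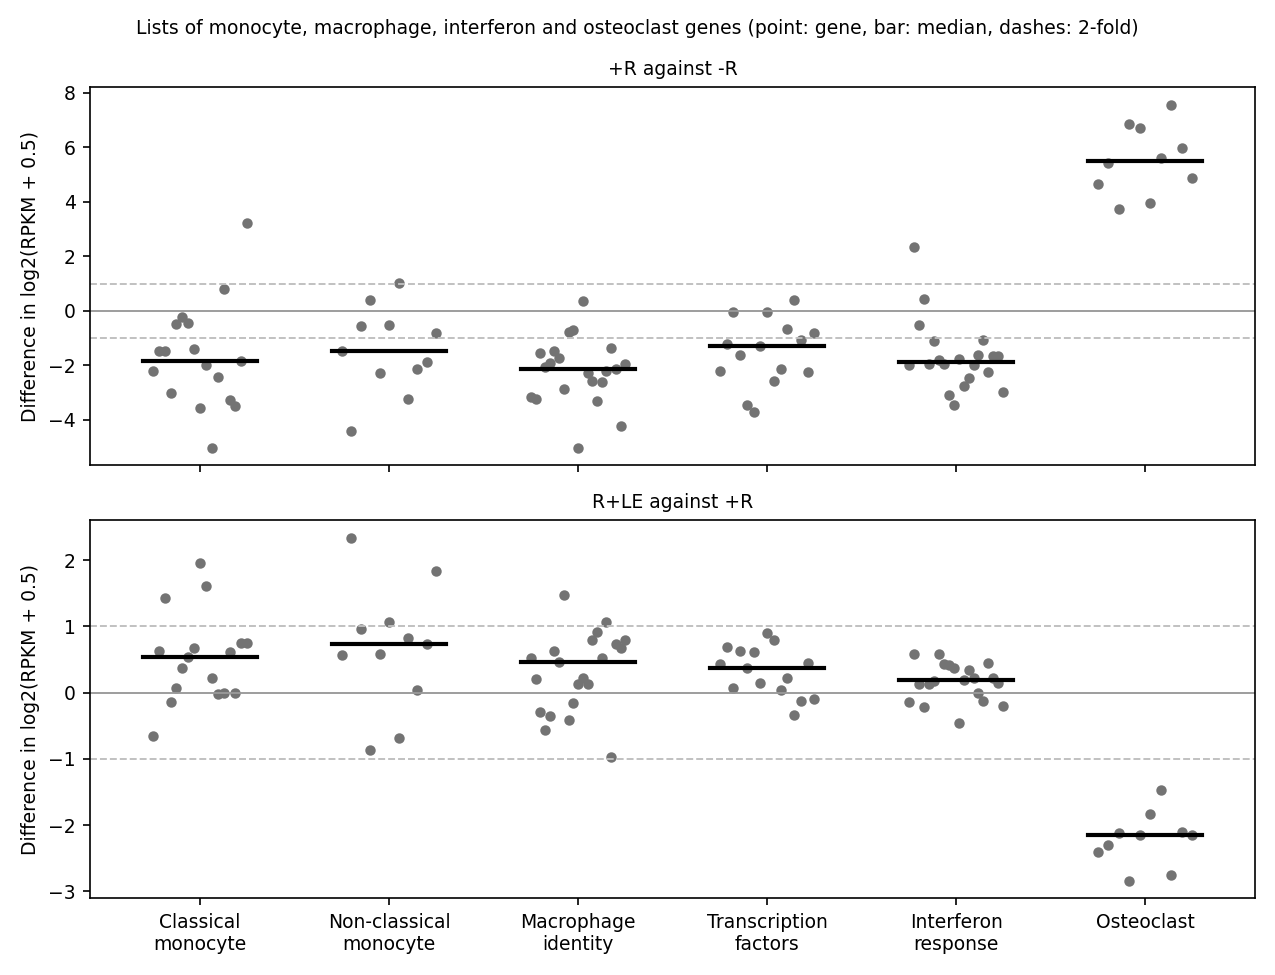
Difference in log2(RPKM + 0.5) for each tested gene of 6 lists, with a bar at the list's median and dashed lines at a 2-fold change, for +R against -R above and R+LE against +R below. The medians of the 5 monocyte, macrophage, factor and interferon lists lie between -2.12 and -1.27 above and between 0.19 and 0.74 below, and those of the osteoclast markers at 5.51 and -2.15.

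Markers of other cells that a marrow culture could hold were low in most lists, but not for stromal genes or for Cd34. The 7 stromal genes, described under the other observations, summed to between 15.4 and 17.0 RPKM in -R and to at least 8.16 RPKM in every library. In the other lists levels were lower. Their summed level was at most 0.927 RPKM for 6 T cell genes, 0.093 RPKM for 5 NK cell genes and 0.583 RPKM for 5 erythroid genes in any library. Cd3e, Gzma, Hba-a1 and Hbb-bs were at 0 in all 6. Some of these lists were higher in -R, where Plac8 and the Ly6c genes were high. Of 10 neutrophil genes 2 passed the filter, and Csf3r, the G-CSF receptor, was 2.48 and 2.94 RPKM in -R and 0.237 and 0.283 RPKM in +R. Csf3r passed the filter only through the -R libraries, so its difference is given with no test. The 10 genes summed to 5.15 and 5.24 RPKM in -R and to between 1.08 and 1.36 RPKM in the other libraries, 5 B cell genes to between 1.57 and 1.96 RPKM in -R and at most 0.124 RPKM elsewhere, and 7 dendritic cell genes to between 2.02 and 2.74 RPKM in -R and between 0.542 and 1.76 RPKM elsewhere. Of 5 progenitor genes, 4 were under 0.5 RPKM in every library, and Cd34, a marker of progenitor and endothelial cells, was 11.9 and 13.4 RPKM in -R, 0.929 and 0.849 RPKM in +R, and 2.53 and 2.05 RPKM in R+LE. Cd34 rose with LE (adjusted p = 0.000541 in limma). The part of such cells in the levels of the 9 genes was not tested.

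For each member, the 3 tested genes outside the list with the most similar pattern were found by the Euclidean distance between log2(RPKM + 0.5), centred on the -R mean, over the 6 libraries. The distance describes likeness only, since all values come from the same 6 libraries. Nearest to Plac8 were Ccl7 (distance 0.96), Rgs1 and Fcgr1, and nearest to Ly6c2 was again Ccl7 (0.61). Ccl7, a chemokine that draws monocytes, was 195 and 194 RPKM in -R, 3.69 and 2.75 RPKM in +R, and 3.19 and 3.19 RPKM in R+LE. Ly6c1 was nearest to Fcgr1 (0.60), Rgs1 and Ms4a4c.

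Nearest to Ly6a was Procr (0.31), which encodes the endothelial protein C receptor, followed by Hmga2 (0.69), a chromatin protein of growing cells, and Cd5l (0.84). Procr was 10.1 and 12.1 RPKM in -R, 0.739 and 0.717 RPKM in +R, and 5.03 and 4.69 RPKM in R+LE. Hmga2 was 16.7 and 18.7 RPKM, then 2.07 and 1.62 RPKM, then 6.87 and 6.40 RPKM. In all 3 genes the R+LE libraries lay between +R and -R with no overlap.

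Nearest to Emilin2 were St3gal5, Slc44a2 and Zdhhc18 (0.18 to 0.24), to Lyz2 Gpr141, Gng2 and Tlr7 (0.14 to 0.17), and to Spn Fv1, Ppic and Hagh (0.28 to 0.30). Tlr7, an endosomal receptor for single-stranded RNA, was 32.5 and 36.1 RPKM in -R, 15.7 and 12.1 RPKM in +R, and 22.5 and 19.1 RPKM in R+LE. Adgre1 was nearest to Arl2bp (0.061), Lamp2 and Lamp1, the latter pair encoding the main membrane proteins of the lysosome. Lamp1 was 340 and 377 RPKM in -R, 219 and 181 RPKM in +R, and 302 and 261 RPKM in R+LE. Ly6i, which varied least, was nearest to Arhgef12, Rnf20 and Shprh (0.082 to 0.093).

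Recovered depth was 29390867 to 34846102 mapped reads per library, of which 74.2% to 80.7% lay on genes. The ribosomal precursor Rn45s took 4.97% and 6.83% of the gene reads in -R and 10.9% to 13.5% in the other 4 libraries, so it moved with RANKL, and its part in the differences was not tested.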

How the data were processed

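RNA of BMMs was sequenced as paired reads of 100 bp. The deposited values are RPKM, made by the authors, who counted reads on the exons of 1 transcript per gene of mm10 with HOMER. The study's methods name TopHat as the aligner and the submitters' processing notes name HISAT2. Versions are not given in the sources used here. The column titles say FPKM and the command line in the header says RPKM. A spreadsheet had turned 26 gene symbols into dates, which were looked up again by transcript identifier.

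Samples were grouped by condition from the labels. The members, lists and tests were chosen with earlier results of these data known. limma 3.58.1 in R 4.3.3 was fitted to log2(RPKM + 0.5) of all 6 libraries, with a variance trend and Benjamini-Hochberg adjustment over 11595 genes. A fold change on this scale understates the change of low genes. A gene was called, and is said to rise or fall with a treatment, at adjusted p below 0.05 and a 2-fold change, and for the 6 members tested at adjusted p below 0.05 with no limit on the fold. A planned test of Plac8, Ly6c1, Ly6c2 and the Ly6c sum between R+LE and +R is not reported, because low values in +R led to the choice of the list. Named were the 9 members, up to 4 genes of each list with the largest change, small lists in full, and the 3 most alike genes. Lists covered the Ly6 cluster, relatives of Emilin2, Adgre1 and Lyz2, monocyte, macrophage, transcription factor, interferon and osteoclast genes, and markers of other cells.

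Whole reads were recovered from RPKM and transcript length, and all values checked were within 0.1 read of a whole number. Read ratios of -R to the other groups have exact 95% intervals. These cover counting error only, not the spread between libraries. They treat reads as independent although mates of a pair may both be counted. Scripts were tested on simulated data. Transcripts were compared in GENCODE M21 and promoters taken from RefSeq, in Python 3.11.15 with Biopython 1.88.

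As alternatives, the pseudocount was set to 0.1 or 1, the filter was dropped or raised to a mean of 1 RPKM, the variance trend was left off, only the compared groups were fitted, values were centred on the median or quantile normalized, the replicate number was used as a block, voom was run on recovered reads, and each library was left out.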

Additional observations from a re-analysis of the deposited data

How the results depend on the processing

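Over the 16 alternatives (15 for Ly6i, which was not tested with a minimum mean of 1 RPKM), Ly6a, Spn and Emilin2 kept their direction and their side of the adjusted p threshold between R+LE and +R. Lyz2 passed under 2 alternatives and Adgre1 under 6. Differences that changed sign were those of Ly6c1 under voom (-0.12) and without R+LE replicate 1 (-0.25), and of Ly6i with median centring (0.023). The summed Ly6c difference also changed sign without R+LE replicate 1 (-0.12). Leaving out 1 library moved the Ly6c1 difference between -0.25 and 0.56, the summed Ly6c difference between -0.12 and 0.73, that between R+LE and -R between -6.49 and -5.64, and the count of all 9 members past both limits as higher between 1 and 3. It was 1 without +R replicate 2, which leaves out Emilin2, and 3 without R+LE replicate 2, which adds Plac8. Genes called higher in R+LE numbered 259 under voom, against 169. For Plac8, the difference between R+LE and +R ranged from 0.55 with a pseudocount of 1 to 2.15 under voom, since the pseudocount sets the fold of genes near 0. The summed Ly6c difference between R+LE and -R was likewise -7.02 and -5.42 with pseudocounts of 0.1 and 1, and -7.31 under voom, against -6.07, and that between +R and -R moved between -7.96 and -5.62, against -6.37. The cause of the other changes was not tested. Deviations of same-numbered libraries correlated by -0.046 between -R and +R, 0.11 between -R and R+LE, and 0.25 between +R and R+LE. These values do not settle whether the replicate numbers pair the samples. The replicate block gave 173 genes called higher and 216 lower in R+LE than in +R, against 169 and 206. At adjusted p below 0.05 with no limit on the fold it gave 756 and 1036, against 602 and 795. With the block Adgre1 passed (adjusted p = 0.0168 in limma), the only call on a member that it changed. The same alternatives were applied, after seeing the data, to the descriptions of +R and R+LE against -R, in which no member changed direction.

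Depth limits Plac8, Ly6c1 and Ly6c2 in the libraries with RANKL, where each rests on 17 reads or fewer, and Ly6i in all libraries. With 2 libraries in each group, the tests rest on the spread shared across genes. The 2 strains named by the sources, the unstated origin of the replicates and the absence of LE alone from the comparisons limit what the groups can show.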

Other observations

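Markers of cells other than monocytes moved with LE in some cases. Kdr, a receptor for vascular endothelial growth factor, was 1.83 and 2.01 RPKM in +R and 0.526 and 0.576 RPKM in R+LE (log2 difference -1.20, adjusted p = 0.000473 in limma), with 1.25 and 1.31 RPKM in -R. The other endothelial markers Cdh5, Pecam1, Tek and Emcn were at or under 0.686 RPKM in every library. Of 7 stromal genes, 3 passed the filter, and Col1a1, Col1a2 and Col3a1 were all lower in R+LE than in +R by less than 2-fold, of which Col1a2 (-0.53, adjusted p = 0.0312) and Col3a1 (-0.76, adjusted p = 0.0133) were below an adjusted p of 0.05. Their summed list lay between 15.4 and 17.0 RPKM in -R, 10.9 and 15.1 RPKM in +R, and 8.16 and 9.10 RPKM in R+LE.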
